A study of Homo sapiens with 2 samples.

Results

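The ubiquitin-specific proteases (USPs) were examined as a family of 44 genes, CYLD and a set of genes with USP symbols. Below, USP genes and the family mean these 44 listed genes, and other genes with USP symbols were not examined. A gene was counted as having a peak of methylated ERG (mERG) when the peak list gave its symbol as the gene with the nearest transcription start site (TSS). Peaks named 18 of the 44 genes, and 86 of the 18070 peaks in the list carried these names. A gene with no such peak was counted as no peak detected. Peak identifiers in the list ran to 18276, past its number of peaks, so some identifiers had no peak, and a gene without a peak is without one in this list only. The chromatin came from VCaP, a line of prostate cancer cells in which the TMPRSS2-ERG fusion places ERG, an ETS transcription factor, under androgen control. The cells were grown in regular medium without further treatment stated, and chromatin was precipitated with an antibody against ERG mono-methylated at a lysine of its auto-inhibitory domain. The series held 1 mERG ChIP library and 1 control library, whose labels name both input and IgG. There were no replicates, so all values describe 1 list of peaks, and the Wilson 95% intervals given with shares cover counting error only.

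USPs are cysteine proteases that remove ubiquitin from proteins or trim ubiquitin chains. By doing so they can spare a substrate from the proteasome, change the ubiquitin marks on histones, or alter the sorting of receptors in the cell. Several members have been studied in prostate cancer for their action on p53, MYC or the androgen receptor, and ERG itself is a substrate of ubiquitin ligases and of deubiquitinases.

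Sequence under some of the strong peaks is shown because ETS factors bind DNA around a GGAA core. For 4 of the 6 USP genes whose best peak scored highest, the 201 bp centred on that peak are given from the plus strand of hg19, 5′ to 3′. Capitals mark GGAA, or TTCC where the core lies on the minus strand.
USP3, chr15:63815517-63815717: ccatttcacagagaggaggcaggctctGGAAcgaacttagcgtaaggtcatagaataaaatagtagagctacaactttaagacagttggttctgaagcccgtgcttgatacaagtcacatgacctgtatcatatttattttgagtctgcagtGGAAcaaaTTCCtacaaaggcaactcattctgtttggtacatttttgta
USP24, chr1:55633284-55633484: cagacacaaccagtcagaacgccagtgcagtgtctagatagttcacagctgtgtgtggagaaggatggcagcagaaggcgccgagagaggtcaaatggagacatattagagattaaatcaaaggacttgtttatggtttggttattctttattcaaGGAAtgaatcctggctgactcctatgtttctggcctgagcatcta
USP25, chr21:17204705-17204905: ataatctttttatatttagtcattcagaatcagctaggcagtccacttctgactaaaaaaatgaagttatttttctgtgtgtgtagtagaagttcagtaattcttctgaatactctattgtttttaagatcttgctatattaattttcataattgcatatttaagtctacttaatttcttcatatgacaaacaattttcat
USP32, chr17:58445488-58445688: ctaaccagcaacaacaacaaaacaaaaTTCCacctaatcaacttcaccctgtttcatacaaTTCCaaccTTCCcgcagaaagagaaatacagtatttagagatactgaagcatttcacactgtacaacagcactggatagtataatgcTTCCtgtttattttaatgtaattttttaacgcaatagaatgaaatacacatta
The window in USP32 held 4 cores, that in USP3 3 and that in USP24 1, whereas the window in USP25 held none. None of these 4 windows had a match to the longer ETS motif CCGGAAGT when 1 base outside GGAA was allowed to differ. All 4 peaks lay in introns. The centre of the USP3 peak fell in a MIRb repeat and that of USP24 in an L2a, while those of USP25 and USP32 were outside annotated repeats.

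The share of USP genes with a peak was above that of genes at large. Peaks named 40.9% of the USP genes (18 of 44, Wilson 95% interval 27.7 to 55.6%), against 21.0% of 19443 protein-coding genes and 16.6% of 29989 genes with a curated RefSeq transcript. With peaks limited to those within 10 kb of the TSS, 10 USP genes (22.7%) were named, against 9.20% of the protein-coding genes. With peaks of a score of at least 50, the 8 USP genes named were USP3, USP16, USP24, USP25, USP28, USP32, USP47 and USP48 (18.2%), against 7.89%. The score is the value the list gives for each peak and was used only to order peaks within the list. At least 5 peaks named 5 USP genes (11.4%), against 4.75% of the protein-coding genes, a limit chosen after the values were seen.

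USP genes are long, and long genes were named more often. The median length of the 44 genes was 73.0 kb, against 27.1 kb for 20092 other protein-coding genes. None of the 5 USP genes under 20 kb (USP1, USP5, USP11, USP19 and USP21) was named, whereas 7.75% of other genes of that length were. Between 20 and 50 kb, 3 of 8 USP genes were named against 21.8% of other genes. The counts were 8 of 19 against 33.5% from 50 to 100 kb and 5 of 10 against 37.5% from 100 to 200 kb. Above 200 kb both USP genes, USP32 and USP34, were named, against 34.3% of other genes. At the shares seen in other genes of their own length classes, 12.9 of the 44 genes (29.4%) would have been named. That figure lies inside the interval of the observed share. For peaks counted by name, the difference from genes of like length was thus within counting error. The genes were chosen with earlier results of these data known, so this is a description and not a test.

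**Figure D1:**
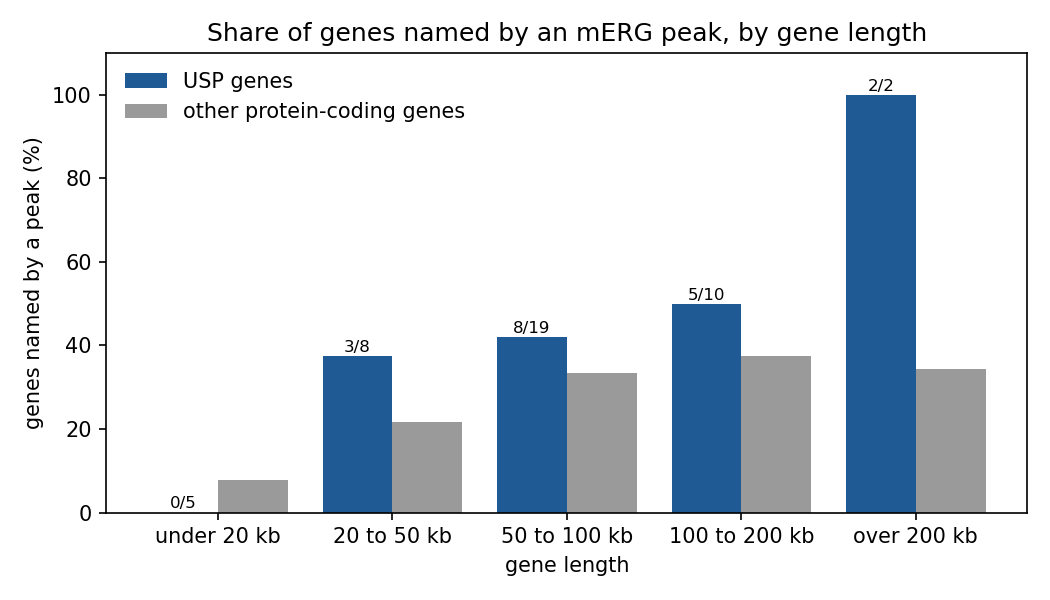
Share of genes named by an mERG peak (%) in 5 classes of gene length, for the USP genes (blue, with counts above the bars) and for other protein-coding genes (grey). The USP bars stand above the grey ones in every class but that under 20 kb, where 0 of 5 were named, and the class over 200 kb holds only 2 USP genes.

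Chromosome placement of the USP genes was also uneven, though at the shares seen in other genes of their own chromosomes 9.23 of the 44 genes (21.0%) would have been named, as for protein-coding genes at large. Of the 44 genes, all 3 on chromosome 11 (USP2, USP28 and USP47) were named, where 18.6% of other genes were. Both on chromosome 15 (USP3 and USP8) and both on chromosome 21 (USP16 and USP25) were also named, against 33.9% and 29.5%. None was named of the 3 on chromosome 3 or the 4 on chromosome 12, where 29.9% and 27.3% of other genes were. Chromosome 16 held only 26 peaks in the whole list, and 2 of them named USP31. The other 3 USP genes there, CYLD, USP7 and USP10, had no peak within 2143 kb, and 2.45% of other genes on the chromosome were named.

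Peaks per gene were spread unequally. The 18 named genes had a median of 2.50 peaks (95% interval 2 to 6), and the 4993 other named genes a median of 2.00. The order turned in the stronger 50% of peaks (1.00 against 2.00). It also turned for named peaks per 100 kb of gene (3.40 against 3.94 for other protein-coding genes). For peaks inside genes of at least 20 kb it did not (3.42 per 100 kb against 3.09, among genes with such a peak). USP3 and USP25 had 18 peaks each and together 36 of the 86 (41.9%), and with USP28 and USP47, at 8 peaks each, they held 60.5%. At the other end USP2, USP8, USP18 and USP54 had 1 peak each. In the whole list 113 genes had more peaks than USP3 and USP25.

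**Figure D2:**
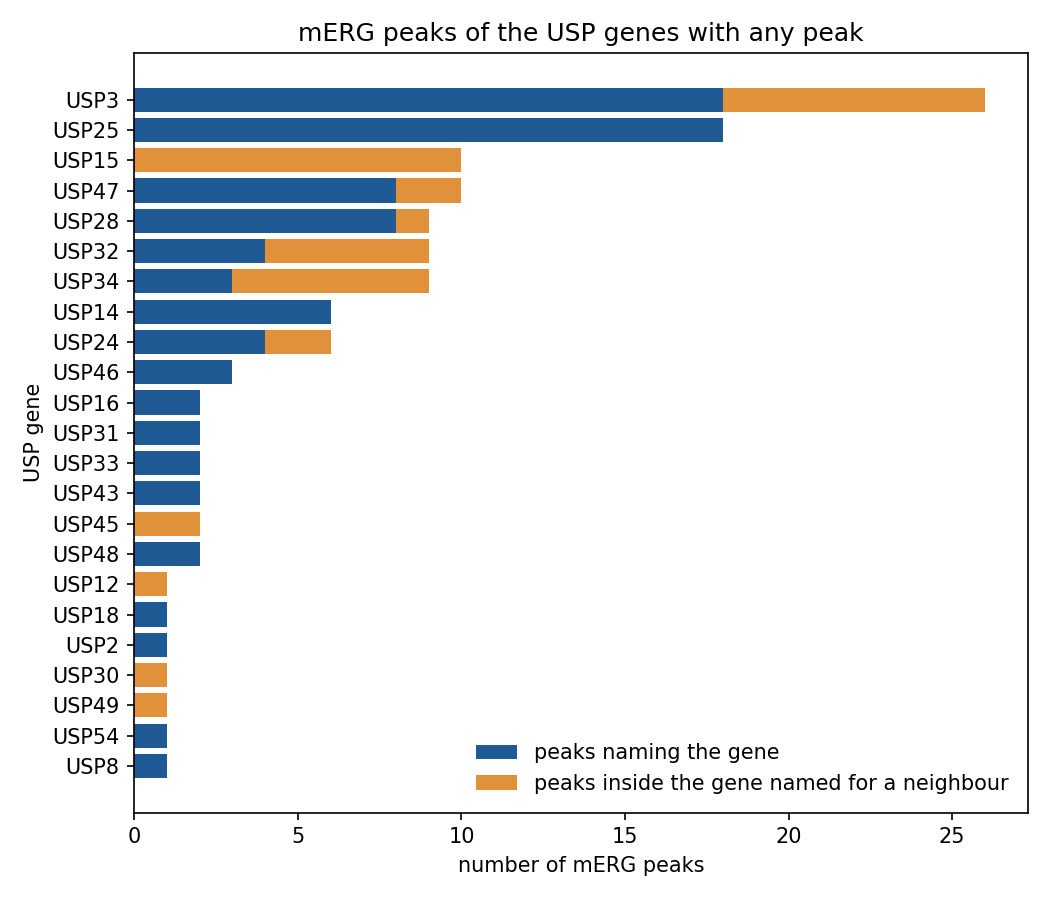
Number of mERG peaks for each of the 23 USP genes with a peak by either rule, with peaks that name the gene in blue and peaks inside the gene that carry the name of a neighbour in orange. USP3 leads with 26 peaks, USP25 follows with 18, and the 10 peaks inside USP15 all carry other names.

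In the group of chromatin and histone USPs, USP3, which removes ubiquitin from H2A and H2B, had the strongest and densest signal in the family. Its top peak (chr15:63815199-63816035) had a score of 108 and lay in intron 1, 18.9 kb downstream of the TSS. Next to it was the widest peak of any USP gene, 1005 bp at chr15:63813826-63814830, with a score of 62.4. A peak with a score of 60.9 (chr15:63800340-63800732) lay 3.83 kb from the TSS. The strongest peaks were thus in intron 1, which held 8 of the 18. The 10 peaks farther in, up to 46.2 kb from the TSS, had scores from 33.8 to 48.0. Neighbouring peaks had a median spacing of 2.25 kb between centres. Another 8 peaks in the remainder of the gene carried the name of FBXL22, an F-box gene at its 3′ end, with scores up to 53.2. USP3 thus held 26 peaks over 90.1 kb, or 28.8 per 100 kb, and 33 of 11645 protein-coding genes of at least 20 kb were denser.

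USP16, which removes ubiquitin from histone H2A before mitosis, had 2 peaks. That with a score of 52.7 lay in intron 4, 7.05 kb from the TSS, and the other, with a score of 34.5, lay 2.41 kb from the TSS and was the closest to a TSS of any USP peak. No peak named USP21, USP22, USP36, USP44 or USP49. USP22 is the deubiquitinase of the SAGA coactivator, and the nearest peak to its gene was 470 kb away. USP49, a histone H2B deubiquitinase, nevertheless had 1 peak within its gene that carried the name of TOMM6, with a score of 40.0. In this group 2 of 7 genes were named (28.6%, 8.22 to 64.1%), with 20 peaks, against the 21.0% of protein-coding genes. With groups of this size the intervals are wide, and that of each role group of USPs held the 33.5% of other genes of 50 to 100 kb.

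Among the USPs tied to DNA damage and p53, 3 of 9 genes were named (33.3%, 12.1 to 64.6%, against 21.0% of protein-coding genes), with 18 peaks. USP28 stabilises MYC and binds the damage factor 53BP1. Its strongest peak had a score of 78.7 and lay in intron 1. Another peak in intron 1 (chr11:113725620-113726246) had a score of 56.5, and among the windows of 201 bp around the 86 USP peak centres its own held the only match to CCGGAAGT with at most 1 mismatch, CTGGAAGT on the minus strand at chr11:113725952-113725959. A further pair with scores of 55.4 and 33.4 lay in intron 10, and 4 of the 8 USP28 peaks had a score of at least 50. For peaks counted by name, USP28 therefore shared with USP3 the highest number with such a score in the family.

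USP47, which deubiquitinates the repair polymerase POLB, had 8 peaks from 5.62 to 70.3 kb downstream of the TSS. Scores were highest at a peak in intron 3 (57.3) and at chr11:11868283-11868895 in intron 1 (56.5). The other 6 had scores from 35.6 to 44.3. A peak with a score of 62.4 lay further along the gene but carried the name of DKK3, so the strongest peak inside USP47 was not among those counted under its symbol. USP48, a histone H2A deubiquitinase that opposes BRCA1 and was listed here for that role in repair, had 2 peaks in intron 1 with scores of 51.5 and 34.3. No peak named USP1, USP7, USP10, USP11, USP42 or USP45. USP7 is the deubiquitinase of MDM2 and p53, and the nearest peak to it was 5073 kb away on the sparsely covered chromosome 16. USP45 had 2 peaks inside its gene under the name of PNISR, with scores of 41.6 and 41.5.

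Among the signalling USPs, 4 of 7 genes were named (57.1%), with 24 peaks, against 21.0% of protein-coding genes. Their median length was 88.0 kb, and the interval of their share, which reached 84.2%, held the 33.5% of other genes of 50 to 100 kb. USP25, which acts on TRAF proteins and tankyrases, supplied 18 of them. These ran from 6.85 to 132 kb downstream of the TSS, over 125 kb, and none of the peaks inside the gene carried another name. Scores were lower than in USP3, with a median of 38.2 against 42.5. The strongest peak (chr21:17204535-17205075, score 58.6) lay in intron 16, 102 kb from the TSS, beside a peak in exon 16 (chr21:17203581-17203925, score 36.1). A second group lay in intron 1, where the peak at chr21:17131672-17132142 had a score of 50.3. No peak fell in the 40.5 kb between a peak in intron 3 and a peak in intron 9. USP25 held 12.0 peaks per 100 kb, and 387 of the 11645 genes of at least 20 kb were denser.

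USP34, which acts on axin in Wnt signalling, had 3 peaks under its own name, all in intron 1, with scores from 36.1 to 40.3. Another 6 lay farther into this gene of 284 kb under the names of SNORA70B and AHSA2P. USP31, linked to NF-κB signalling, had 1 peak in intron 1 (score 40.7) and 1 in exon 2 (score 39.7). USP18, the protease for the ubiquitin-like protein ISG15, had 1 intergenic peak 11.9 kb upstream of the TSS, with a score of 47.2, in an LTR2 element. No peak named CYLD, USP4 or USP15. For USP15, which deubiquitinates components of TGF-β signalling, the count by name missed 10 peaks that lay inside the gene, 6 under the name of MIR6125, a microRNA gene, and 4 under that of MON2, with scores up to 53.4.

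USP14, which is bound to the proteasome and trims chains there, had 6 peaks in introns 3 to 9, between 18.8 and 41.1 kb from the TSS. They differed little in score, from 36.7 at chr18:183176-183601 to 40.4 at chr18:199418-199767. All 6 were below the median of 40.9 for other peaks. USP5 and USP13, which take apart unanchored or other ubiquitin chains, had no peak, so 1 of 3 genes of this group was named (33.3%, 6.15 to 79.2%, against 21.0% of protein-coding genes). Of the pair activated by the WD40 proteins WDR48 and WDR20, USP46 had 3 peaks and USP12 had none under its name. The interval of this share, 9.45 to 90.5%, held the 21.0% of protein-coding genes. The strongest in USP46 (chr4:53493541-53493979, score 46.1) lay in intron 3, and the others, at chr4:53471220-53471412 and chr4:53472497-53472797, had scores of 34.7 and 35.4 in intron 5. USP12 had 1 peak near the 3′ end of its gene under the name of the antisense gene USP12-AS1, with a score of 49.4.

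Among the USPs of membrane traffic, 3 of 5 genes were named (interval 23.1 to 88.2%), against 21.0% of protein-coding genes and 33.5% of those of 50 to 100 kb, the class of their median length of 63.9 kb. USP32, found on Golgi and endosomal membranes, had 4 peaks, of which that at chr17:58445439-58445737 in intron 1 had a score of 53.4, and the rest had scores from 33.5 to 37.8. Another 5 peaks inside USP32 carried the names of SCARNA20 and CA4. USP33, which deubiquitinates receptors in recycling, had 2 peaks in intron 1 with scores of 47.1 and 37.7. USP8, which acts on receptors at endosomes, had 1, with a score of 44.9. USP6 and USP20 had none. USP6 arose from a copy of USP32 and shares long stretches of sequence with it, and how reads that fit both were placed is not given in the sources used here.

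The remaining groups had few peaks. USP2, a deubiquitinase of cyclin D1 and MDM2, had 1 peak with a score of 37.2, 2.45 kb from the TSS used in the list but 75.4% of the way along the gene of GENCODE. USP37, which acts on cyclin A, had none, so 1 of these 2 cell cycle genes was named (9.45 to 90.5%, against 21.0% of protein-coding genes). None of the 3 genes USP19, USP30 and USP39 was named (0 to 56.1%, against 21.0% of protein-coding genes). The mitochondrial USP30 nevertheless had 1 peak inside its gene under the name of ALKBH2, with a score of 39.0. Of 6 less characterised members, USP24, USP43 and USP54 were named and USP38, USP40 and USP53 were not (18.8 to 81.2%, against 21.0% of protein-coding genes and 33.5% of those of 50 to 100 kb, the class of their median length of 88.2 kb). USP24 had 4 peaks from 46.8 to 65.4 kb into the gene. Its strongest, at chr1:55633220-55633549 in intron 5, had a score of 60.4 and lay 0.866 kb from a peak at chr1:55634067-55634434 with a score of 48.2. The 2 peaks of USP43 had scores of 47.7 and 39.2. The single peak of USP54 had a score of 34.7 and was listed as intergenic, 32.3 kb upstream of the TSS, but lay inside the longer gene of GENCODE.

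**Figure D3:**
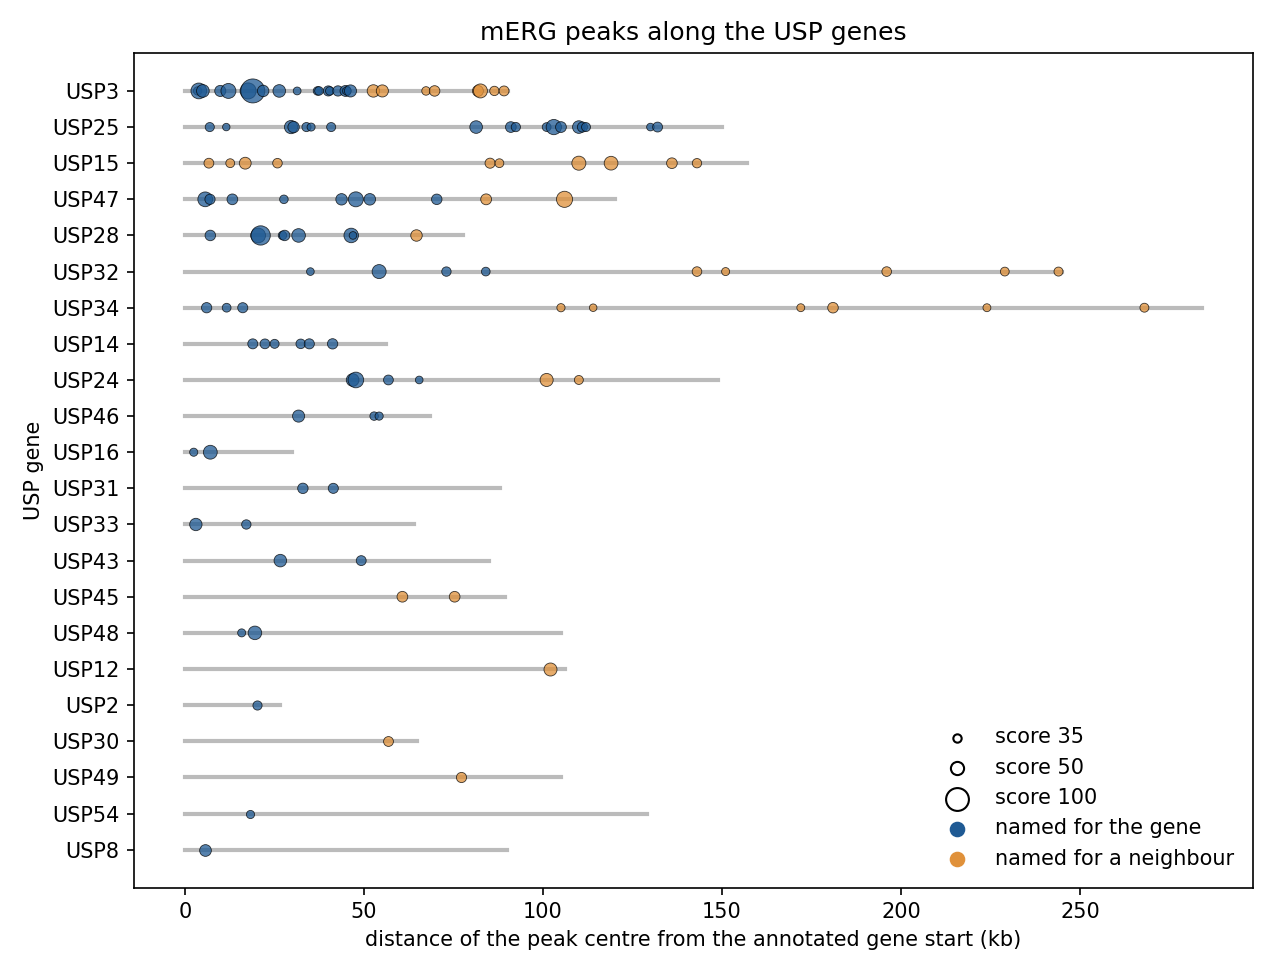
Position of each mERG peak inside the 22 USP genes with a peak in the gene body, as the distance of its centre from the annotated gene start (kb). Grey lines are gene lengths, circle area grows with the peak score, and colour gives whether the peak carries the name of the gene (blue) or of a neighbour (orange). The orange peaks of USP3, USP32, USP34 and USP24 all lie farther from the start than the blue ones.

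Counting by gene body in place of name raised the family's share. Of the 44 genes, 22 (50.0%, 35.8 to 64.2%) had a peak centre inside the gene, against 19.6% of 20136 protein-coding genes. At this rule's shares in other genes of their own length classes, 13.8 of the 44 genes (31.3%) would have had a peak. This is lower than the interval of the observed share. It is a description only, as the genes were chosen with earlier results of these data known. The comparison at like length thus differed between the rules, since for peaks counted by name the corresponding figure lay inside the interval. The 22 genes held 124 peaks, of which 39 carried 14 other names. The 5 genes with peaks inside but none under their symbol were USP12, USP15, USP30, USP45 and USP49. By either rule 23 genes had a peak and 21 had none. The share of all protein-coding genes by either rule was not computed, so nothing is read from this count. Across the 44 genes, length and peaks in the body had a Spearman correlation of 0.580, a description in which genes are not independent replicates. Among genes of at least 20 kb with a peak inside, the median was 3.42 peaks per 100 kb for 22 USP genes and 3.09 for 3675 other genes. These medians cover only genes that had a peak. Among the USP genes USP3, USP25, USP28 and USP14 were the 4 above 10 per 100 kb, a limit chosen after the values were seen. Of 11645 protein-coding genes of at least 20 kb, 3.98% were at least as dense as USP14, the least dense of the 4 at 10.7.

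Peak scores of the family were close to those of the list. The median over the 86 peaks was 40.2 (95% interval 38.9 to 41.9), against 40.9 over the 17984 other peaks. For the strongest peak of each gene, the medians were 47.5 (40.7 to 57.3) for the 18 USP genes and 44.5 for the 4993 others. A score of at least 50 was reached by 16 of the 86 peaks (18.6%, 11.8 to 28.1%) and by 4495 of the 17984 others. The highest USP score of 108 was exceeded by 338 peaks of the list. Widths were also alike, with medians of 390 and 400 bp. A width of 1 kb or more was reached by 1 USP peak (1.16%, 0.206 to 6.30%). The share of the other peaks, 5.79%, lay inside that interval.

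**Figure D4:**
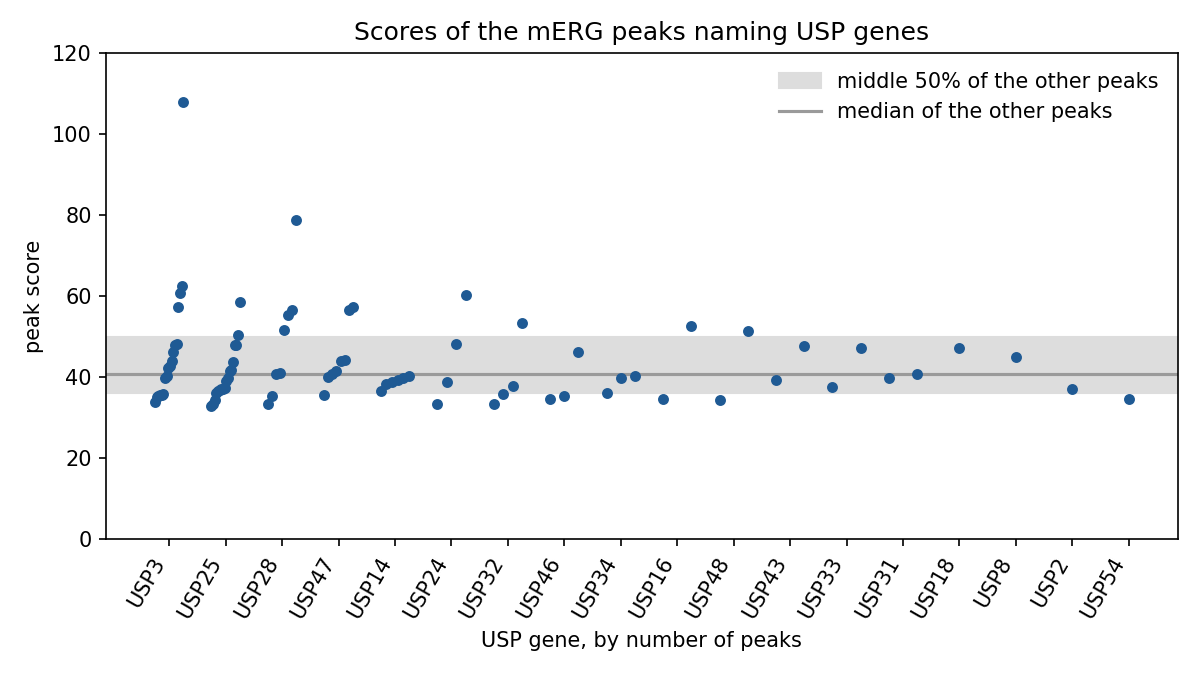
Score of each of the 86 peaks that name a USP gene (points), by gene in the order of peak number, with points of a gene sorted by score. The grey line is the median of the other peaks (40.9) and the band their middle 50% (36.0 to 50.0), and only USP3 and USP28 have a point above 70.

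Almost all peaks of the family lay within transcribed regions downstream of the TSS. Introns held 82 of the 86 (95.3%, 88.6 to 98.2%), against 87.6% of the other peaks, and 2 more lay in exons. Intron 1 held 35 (40.7%, 30.9 to 51.3%), against 28.1%. Intron numbers follow the transcript given for each peak, and this differed within some genes, as in USP28 (21 or 24 introns). Only the peaks of USP18 and USP54 (2.33%, 0.640 to 8.09%) lay upstream of the TSS, against 24.7% of the others. Without USP3 and USP25, a choice made after the values were seen, intron 1 held 23 of 50 peaks (46.0%) and the same 2 peaks lay upstream. The higher share in intron 1 and the lower share upstream were thus also seen without these 2 genes. USP28 and USP47, next in number of peaks, had 6 and 4 peaks in intron 1 and were not left out. The part played by gene length in these shares was not tested.

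Distances to the TSS were similar to those of the list. The median was 31.9 kb (25.8 to 40.4 kb) for the USP peaks and 27.7 kb for the others. No USP peak lay within 1 kb of a TSS, where 0.484% of other peaks lay, and 15 of 86 (17.4%) lay within 10 kb, against 20.1%. For the closest peak of each gene the median was 6.94 kb over the 18 USP genes (4.74 to 25.8 kb) and 12.5 kb over the other named genes. The signal on USP genes was thus intronic and away from the promoter in this list.

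**Figure D5:**
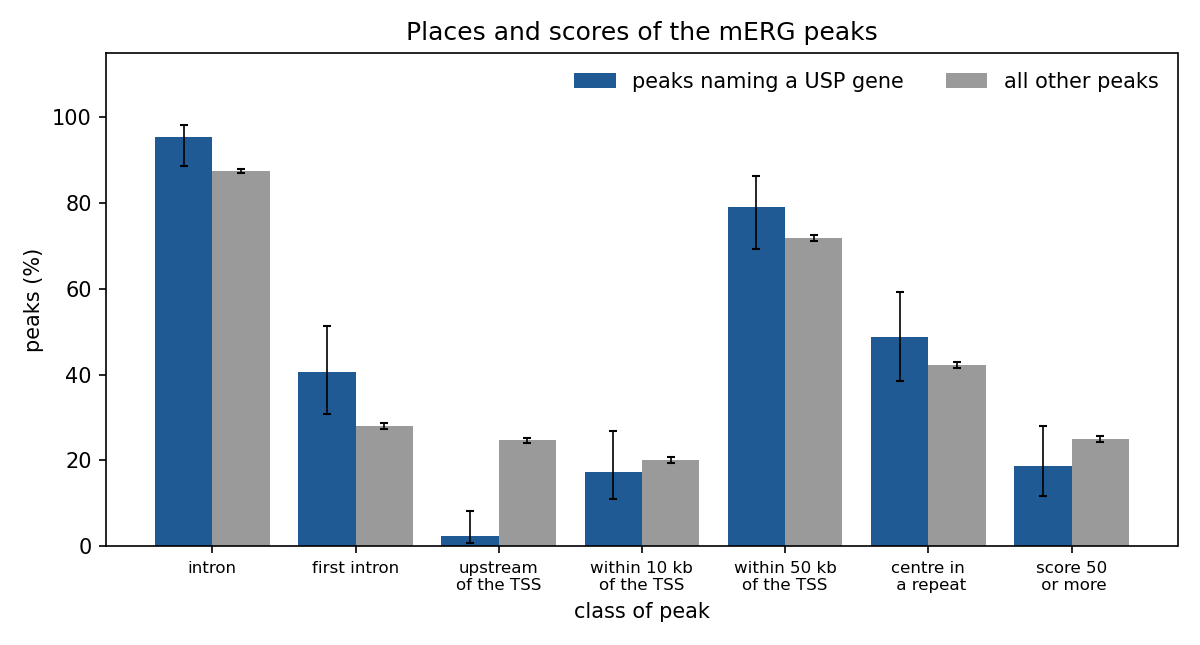
Share (%) of the 86 peaks naming a USP gene (blue) and of the 17984 other peaks (grey) in 7 classes of place, repeat and score. Error bars are Wilson 95% intervals for counting error only. The bars differ most for peaks upstream of the TSS, 2.33% against 24.7%, and for intron 1, 40.7% against 28.1%.

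The sequence under the USP peaks resembled that of the list. GGAA on either strand was present within 100 bp of the centre in 71 of 86 peaks (82.6%, 73.2 to 89.1%), against 83.8% of 18037 peaks. CCGGAAGT with at most 1 mismatch was present in 1 of 86 of these windows (1.16%) and in 2.62% of those of all peaks. Over the whole peak the counts were 4 of 86 (4.65%) and 6.40%. A GGAA core is frequent in any sequence of this length, so its presence is a description and not a binding site. The median GC content of these windows was 37.3% for USP peaks and 38.3% for all. The peak centre lay in a repeat for 42 USP peaks (48.8%, 38.6 to 59.2%) and for 42.3% of the others.

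Related USPs were also set side by side. Of 11 pairs of related genes, chosen after the values were seen, 2 had peaks naming both genes, 6 had peaks naming 1 gene and 3 had none, in a family of which 40.9% was named against 21.0% of protein-coding genes. Nothing particular to related genes is read from these counts. Both genes were named for USP25 and USP28, with 18 and 8 peaks, and for USP31 and USP43, with 2 peaks each. USP47 had 8 peaks and USP7 none, and USP32 had 4 and USP6 none. By gene body, both genes had a peak in 4 of the 11 pairs, those above and USP12 with USP46 and USP16 with USP45, while 1 gene had a peak in 6 pairs, such as USP15 with 10 and USP4 with 0, in a family of which 50.0% had a peak by this rule against 19.6% of protein-coding genes. The genes of a pair differ in length and, apart from USP6 and USP32, in chromosome. The part of either was not tested.

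The genes that work with or beside USPs gave a range of shares, all to be read against the 21.0% of protein-coding genes and their median length of 27.1 kb. Median lengths were 38.7 kb for the other deubiquitinases, 43.3 kb for the cofactors and partners, 35.8 kb for the ubiquitin, E1 and E2 genes and 119 kb for the cullins and NEDD4-family ligases. Of 33 other deubiquitinases, 11 were named (33.3%, 19.8 to 50.4%), led by VCPIP1 with 5 peaks, OTUD7B with 4 and MYSM1 with 3. Of 12 cofactors and E3 partners of USPs, 8 were named (66.7%, 39.1 to 86.2%), led by ATXN7 of the SAGA module and the USP10 cofactor G3BP1 with 11 peaks each, and by GMPS, a partner of USP7, and WDR20 with 5 each. Among ubiquitin, E1 and E2 genes, 20 of 37 were named (54.1%, 38.4 to 69.0%), led by UBE2H with 21 peaks, UBE2R2 with 17 and, at 14 peaks, UBE2E1, UBE2G1 and UBE2W. Of 17 cullins and NEDD4-family ligases, 9 were named (52.9%, 31.0 to 73.8%), led by CUL1 with 19 peaks, WWP1 with 13 and ITCH with 11. The interval of the USP family (27.7 to 55.6%) overlapped each of these, and differences between the groups were not tested.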

How the data were processed

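The authors deposited 1 list of peaks for the mERG ChIP library of VCaP cells against its control. Its header names MACS peaks on hg19 annotated with HOMER, and the submitters' processing notes name Bowtie2, Picard and HOMER. Versions, the MACS threshold and the placing of reads that fit several sites are not given in the sources used here. The deposited score of each peak has no stated scale and was used only within the list. Distances are in bp from the peak centre to the nearest TSS. Read depth is unknown, and the kind of control (input or IgG) was not settled. Members and gene lists were chosen with earlier results of these data known, so no test over them was run, and counts and medians stand beside those of all other genes. Background genes came from RefSeq (GRCh38.p14, names only), gene bodies and lengths from GENCODE release 44 on GRCh37. Sequence was read from GRCh37. Shares have Wilson 95% intervals and medians order-statistic 95% intervals. Every member with a peak was named, positions were given for the 8 with the most peaks (ties by score) and the 6 with the highest score, sequence for 4 of those 6 (the other 2 are not reported here), and from the other lists the 3 genes with the most peaks (ties included). Other values of single genes were chosen after they were seen. Values were computed in Python (3.11.15) with pandas (2.3.3) and NumPy (2.4.6), correlations with SciPy (1.17.1) and plots with Matplotlib (3.10.9), and the counting and motif search were tested on simulated data. Alternatives covered peak score, distance to the TSS, gene assignment, extreme peaks, chromosomes 16 and X, background genes, scaling and motif window.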

Additional observations from a re-analysis of the deposited data

How the results depend on the processing

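No paired analysis was possible because there was 1 ChIP library and 1 control library. Setting aside the choice made after seeing the data, 29 of the values recomputed under another setting stayed within the interval or within 1.5 times the count, and 14 did not. With the stronger 50% of peaks, peaks naming USP genes fell to 38 and the median per named gene to 1.00, against 2.00 for other genes, the reverse of the order over all peaks. With a score of at least 50, the share of USP genes was 18.2%, peaks 16, the median per gene 1.5, the strongest score 57.9 (62.5 for other genes, again in reversed order, as by less than 1 in the stronger 50% and within 10 kb of the TSS), the intron share 100% and the distance 20.7 kb. Within 10 kb of the TSS, the share was 22.7%, peaks 15, the median per gene 1.00 and the intron share 100%. These settings keep fewer peaks by construction. Per 100 kb of gene, on another scale, the median of named peaks was 3.40 for USP genes and 3.94 for other named protein-coding genes. For peaks inside genes of at least 20 kb, the medians were 3.42 and 3.09, in the other order. The background share was 16.6% of all curated genes and 21.0% of protein-coding genes. Without USP3 and USP25, chosen after seeing the data, 50 peaks were left. The USP share stayed above that of protein-coding genes in the settings on score, distance, extreme peaks and chromosomes. For peaks counted by name, however, its interval held the share at like gene length (29.4%). For peaks in the gene body, the interval lay above the share at like length by that rule (31.3%). Both are descriptions only, since the genes were chosen with earlier results known. Depth is unknown, so no peak detected does not show absence of mERG.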
